A study of Homo sapiens with 11 samples.

Results

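In 92-1 cells treated with FHT-1015, 5773 of the 89761 narrow SMARCA4 peaks lay at the boundary of a protein-coding gene and had no SMARCA4 peak under them in DMSO. These peaks, called new boundary peaks here, were chosen by 2 criteria. They shared no base with any SMARCA4 peak of the DMSO library, and they lay within 1 kb of either boundary (the outermost start or end) of a protein-coding gene in RefSeq on GRCh38. A peak is a stretch of the genome where sequenced fragments pile up over background. The absence of a DMSO SMARCA4 peak is therefore part of the definition and not a finding, whereas the peaks of the other antibodies come from separate libraries that the definition did not use.

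The line 92-1 was derived from a uveal melanoma, a tumour of pigment cells of the eye. Cells of this single line were treated for 4 h with the solvent DMSO or with FHT-1015, which inhibits both SMARCA4 (also called BRG1) and SMARCA2, and the concentration is not given in the sources used here. Chromatin immunoprecipitation with sequencing (ChIP-seq) was done with antibodies to SMARCA4, H3K27ac, MITF, TFAP2A and SOX10, with 1 library per antibody and treatment (10 in all) and 1 input library from DMSO cells. The comparison addresses how a SMARCA4/SMARCA2 inhibitor alters where these proteins sit on the genome. With 1 library per antibody and condition there is no replicate error, so no test was made. The 95% Wilson intervals in parentheses cover counting error over peaks only, not variation between cultures or immunoprecipitations.

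SMARCA4 and SMARCA2 are the alternative ATPases of BAF complexes, which use ATP to slide or evict nucleosomes and so open promoters and enhancers to other proteins. H3K27ac, acetylation of histone H3 at lysine 27, is laid down at promoters and enhancers in use. MITF and SOX10 govern the identity of pigment cells, and TFAP2A acts in the neural crest, the embryonic source of those cells. In melanocytes and melanoma these factors are known to work with BAF complexes at lineage genes.

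The sequences of the promoters under the strongest new boundary peaks are shown to let their base composition be compared. Each is the 250 bases upstream of the gene start in RefSeq (GRCh38.p14), 5′ to 3′ on the strand of the gene, for the 6 highest-ranked peaks that touched a RefSeq promoter window. Capitals mark matches, on either strand, to a TFAP2A motif (GCCNNNGGC), an E-box bound by MITF (CACGTG or CATGTG) or a SOX core (ACAATG or ACAAAG).
DTX2: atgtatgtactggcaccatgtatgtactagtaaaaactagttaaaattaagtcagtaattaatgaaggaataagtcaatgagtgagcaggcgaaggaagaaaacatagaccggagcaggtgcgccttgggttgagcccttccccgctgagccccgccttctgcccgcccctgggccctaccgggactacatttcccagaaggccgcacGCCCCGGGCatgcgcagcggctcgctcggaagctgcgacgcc
PSD: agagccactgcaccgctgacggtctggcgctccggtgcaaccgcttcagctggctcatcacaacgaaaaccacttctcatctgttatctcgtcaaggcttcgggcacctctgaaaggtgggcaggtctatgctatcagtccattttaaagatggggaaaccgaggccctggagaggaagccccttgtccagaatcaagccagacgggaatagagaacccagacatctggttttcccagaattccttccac
EFEMP2: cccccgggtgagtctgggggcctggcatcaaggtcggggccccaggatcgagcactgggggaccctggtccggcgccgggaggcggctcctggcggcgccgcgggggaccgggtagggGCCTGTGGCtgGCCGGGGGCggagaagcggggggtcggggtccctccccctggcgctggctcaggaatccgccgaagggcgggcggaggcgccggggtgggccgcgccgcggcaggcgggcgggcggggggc
GLIS1: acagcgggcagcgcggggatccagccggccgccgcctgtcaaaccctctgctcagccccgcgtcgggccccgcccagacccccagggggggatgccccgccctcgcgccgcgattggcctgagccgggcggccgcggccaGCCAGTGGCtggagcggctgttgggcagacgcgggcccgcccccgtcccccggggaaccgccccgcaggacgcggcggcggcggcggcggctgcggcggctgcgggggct
ENHO: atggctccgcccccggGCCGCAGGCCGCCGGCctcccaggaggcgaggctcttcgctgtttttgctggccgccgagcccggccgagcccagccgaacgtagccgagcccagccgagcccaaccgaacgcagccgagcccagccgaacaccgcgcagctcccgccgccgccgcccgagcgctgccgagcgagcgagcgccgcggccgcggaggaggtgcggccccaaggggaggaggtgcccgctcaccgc
ZNF614: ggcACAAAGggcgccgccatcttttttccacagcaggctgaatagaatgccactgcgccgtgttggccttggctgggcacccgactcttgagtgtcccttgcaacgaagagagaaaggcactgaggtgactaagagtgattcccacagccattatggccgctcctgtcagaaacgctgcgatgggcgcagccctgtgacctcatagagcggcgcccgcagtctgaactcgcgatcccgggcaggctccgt
They lie at chr7:76461459-76461708 (DTX2, plus strand), chr10:102419947-102420196 (PSD, minus), chr11:65872801-65873050 (EFEMP2, minus), chr1:53739165-53739414 (GLIS1, minus), chr9:34522991-34523240 (ENHO, minus) and chr19:52028380-52028629 (ZNF614, minus). The peaks of DTX2 and GLIS1 start just downstream of the printed bases. The upstream sequences of EFEMP2 and GLIS1 were 81.6% and 82% G+C and that of ENHO 78%, whereas those of DTX2, ZNF614 and PSD were 55.6%, 60% and 54%. Of them, 4 held a TFAP2A motif match: 2 matches each for EFEMP2 and ENHO and 1 each for DTX2 and GLIS1. ZNF614 held 1 ACAAAG and PSD no match to any of these motifs.

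Over all promoters, the windows under new boundary peaks were less rich in G+C than those under SMARCA4 peaks shared between conditions. RefSeq promoter windows, 250 bases before to 50 bases after a gene start, had a median G+C of 62.3% over 22199 windows of 15843 genes. The 1473 windows that overlapped a new boundary peak and no shared SMARCA4 peak had a median of 65.3%, the 6830 windows under a shared peak alone 68.7%, and the 13637 windows under neither 58%. The TFAP2A motif was present in 32.5% of the windows under new boundary peaks, between 37.6% under shared peaks and 21.5% under neither, with 27.3% of all windows holding it. The E-box CACGTG followed the same order, at 9.30%, 11.3% and 6.77%, against 8.34% of all windows. CATGTG was found in 6.79% of windows under new peaks, 5.59% under shared peaks and 8.93% of all windows. ACAAAG was in 11.6%, 9.15% and 13.6% of these, and ACAATG in 5.57%, 5.29% and 8.17%. A match describes the letters of the window only.

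At gene boundaries, SMARCA4 peaks found only with FHT-1015 outnumbered those found only with DMSO, and away from boundaries the order was the reverse. Of the 19385 FHT-1015 SMARCA4 boundary peaks, 5773 (29.8%, 29.1 to 30.4) were new, against 45.4% of all FHT-1015 SMARCA4 peaks. Of the 18220 DMSO SMARCA4 boundary peaks, 2733 (15%, 14.5 to 15.5) had no FHT-1015 SMARCA4 peak under them, a ratio of 2.11 new peaks for each DMSO-only peak. Away from boundaries, 34996 of 70376 FHT-1015 peaks (49.7%) were new and 46231 of 83767 DMSO peaks (55.2%) were DMSO-only, a ratio of 0.757. The authors give each peak a −log10 p for its rise over background. At values of 10 or more, the boundary counts were 470 new and 87 DMSO-only. The counts elsewhere were 391 new and 2766 DMSO-only. These SMARCA4 counts come from the 2 lists that defined the set and are a description. The FHT-1015 SMARCA4 library was the shallower of the pair, at 0.918 of the DMSO depth as recovered from the lowest background of each list.

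**Figure D1:**
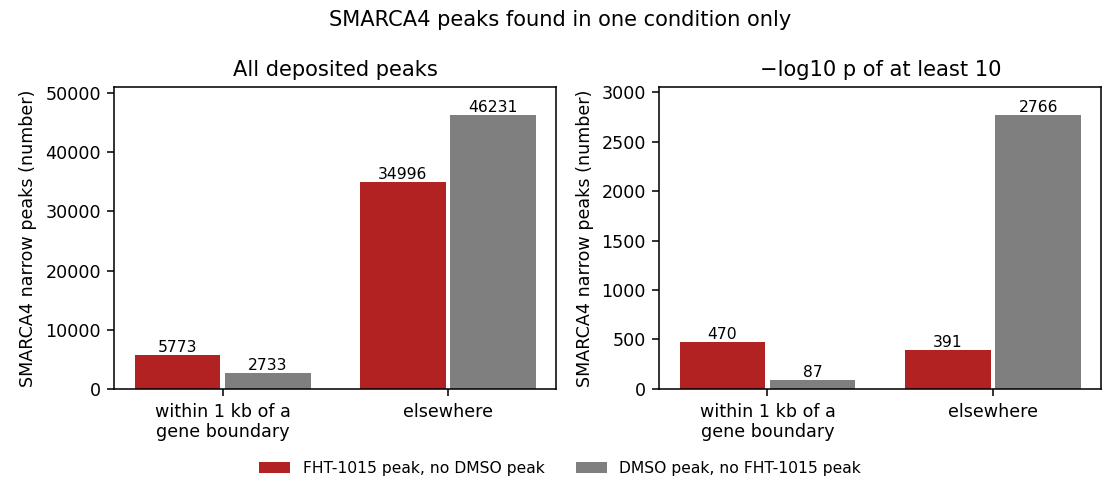
Number of narrow SMARCA4 peaks found with FHT-1015 only (red) or DMSO only (grey), within 1 kb of a gene boundary or elsewhere, for all deposited peaks (left) and those with −log10 p values of 10 or more (right; each panel has its own axis from 0). At boundaries the FHT-1015-only peaks outnumber the DMSO-only ones (5773 against 2733, and 470 against 87), and elsewhere the DMSO-only peaks are more numerous.

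New boundary peaks were weaker than shared boundary peaks and close to FHT-1015 SMARCA4 peaks in general. Their median −log10 p was 4.78 (range 2.02 to 53.8), against 11.2 for the 13612 FHT-1015 boundary peaks that shared a base with a DMSO peak. Their median width was 287 bp against 788 bp, and their median fold over background, also the authors' value, was 3.10 (1.58 to 16.98) against 4.67. The summit, the highest point of a peak, held a median of 14 reads (5 to 84) in new boundary peaks and 25 in shared ones. Over all FHT-1015 SMARCA4 peaks the medians were a −log10 p of 4.96, a width of 316 bp, a fold of 3.25 and 14 reads. The median −log10 p was 4.00 for new distal peaks and, in the DMSO list, 4.42 for DMSO-only boundary peaks. A q-value under 0.05 was reached by 4615 of the 5773 (79.9%), and 50 had a −log10 p of at least 20. Peaks in the last 100 bp inside the distance limit had a median −log10 p of 4.15 (373 peaks), and those in the next 100 bp outside it 4.10 (358 peaks). The 359 peaks that lay within 100 bp of a DMSO SMARCA4 peak without touching it had a median of 4.96, and the 417 boundary peaks that shared 1 to 100 bp with one had 4.71.

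More new boundary peaks stood beside a DMSO SMARCA4 peak than far from one. The median distance to the nearest DMSO SMARCA4 peak was 699 bp; 1056 (18.3%) lay within 200 bp and 3347 (58.0%) within 1 kb, while 852 (14.8%) were over 20 kb away. A DMSO broad SMARCA4 peak, from a second list called with wider regions, covered 1709 of them (29.6%). At 3400 (58.9%) a DMSO SMARCA4 peak lay within 1 kb of the same gene boundary, and at 2373 (41.1%) the boundary was bare of one. The peaks at these bare boundaries had a median −log10 p of 4.78 and those at occupied ones 4.91, so the strength of the new peak hardly differed between them. H3K27ac in FHT-1015 was found at 45.0% of the peaks at bare boundaries and 60.0% of those at occupied ones, and gene ends made up 18.6% and 6.94%.

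The share of new boundary peaks with H3K27ac was nearly the same in DMSO as in FHT-1015. In DMSO, 3038 of the 5773 (52.6%, 51.3 to 53.9) overlapped an H3K27ac peak by at least 1 bp, against 54.3% of all FHT-1015 SMARCA4 peaks. In FHT-1015 it was 3110 (53.9%, 52.6 to 55.2), against 47.9%. By single peaks, 2830 had H3K27ac in both conditions, 2455 in neither, 280 in FHT-1015 only and 208 in DMSO only. The FHT-1015-only share was 4.85% (4.33 to 5.43), against 3.20% of all FHT-1015 SMARCA4 peaks, and the DMSO-only share 3.60%, against 9.63%. Of the 280 peaks with H3K27ac in FHT-1015 only, 207 (73.9%) had a DMSO H3K27ac peak within 1 kb, and 118 (42.1%) lay in an FHT-1015 H3K27ac peak that also touched a DMSO one. The whole H3K27ac list was shorter in FHT-1015, with 48103 peaks against 68093.

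TFAP2A was the factor found most often at new boundary peaks, and its share was higher in FHT-1015 than in DMSO. It was found at 2771 in DMSO (48.0%, 46.7 to 49.3; 49.4% of all FHT-1015 SMARCA4 peaks) and at 2962 in FHT-1015 (51.3%, 50.02 to 52.6; 40.8% of all). A TFAP2A peak in FHT-1015 only was found at 546 (9.46%, 8.73 to 10.2), against 3.98% of all FHT-1015 SMARCA4 peaks and 4.50% of shared boundary peaks. A TFAP2A peak in DMSO only was found at 355 (6.15%), against 12.6% of all. The whole TFAP2A list was shorter in FHT-1015, with 118942 peaks against 142667, so the gain at new boundary peaks ran against the list as a whole.

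MITF peaks were present at fewer new boundary peaks and changed little in number. The counts were 1178 in DMSO (20.4%, 19.4 to 21.5; 35.6% of all FHT-1015 SMARCA4 peaks) and 1113 in FHT-1015 (19.3%, 18.3 to 20.3; 25.0% of all). MITF was in both conditions at 805, in DMSO only at 373 (6.46%, against 14.4% of all) and in FHT-1015 only at 308 (5.34%, against 3.75%).

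SOX10 peaks were fewer with FHT-1015 at new boundary peaks, as they were over the whole SOX10 list. They were found at 2341 in DMSO (40.6%, 39.3 to 41.8; 48.3% of all FHT-1015 SMARCA4 peaks) and at 951 in FHT-1015 (16.5%, 15.5 to 17.5; 17.5% of all). At 1478 (25.6%, against 32.1% of all) SOX10 was present in DMSO only, and at 88 (1.52%, against 1.38%) in FHT-1015 only. The whole list went from 103379 to 33268 peaks; with both lists limited to the same number of peaks, the DMSO share at new boundary peaks was 19.3%. Sites that gained a SMARCA4 peak thus had fewer SOX10 peaks after treatment than before.

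**Figure D2:**
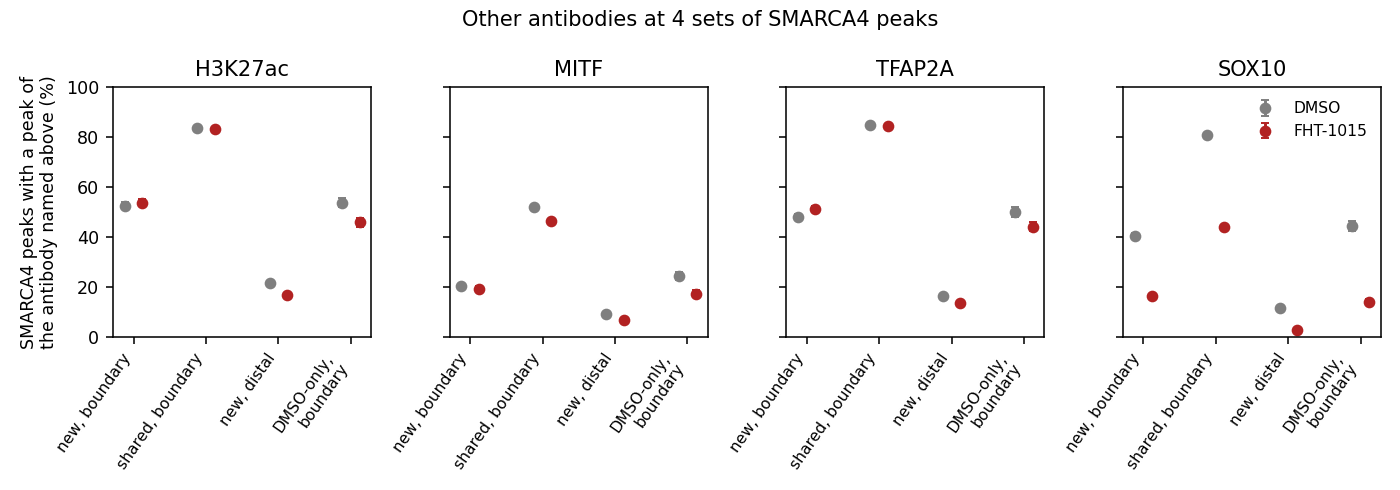
Percent of SMARCA4 peaks that overlap a peak of H3K27ac, MITF, TFAP2A or SOX10 in DMSO (grey) or FHT-1015 (red), for new boundary (n = 5773), shared boundary (n = 13612), new distal (n = 34996) and DMSO-only boundary (n = 2733) SMARCA4 peaks; bars are 95% Wilson intervals. At new boundary peaks the TFAP2A share is 48.0% in DMSO and 51.3% in FHT-1015, and the SOX10 share 40.6% and 16.5%.

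New boundary peaks carried fewer other peaks than shared boundary peaks and more than new peaks elsewhere. Shared boundary peaks had H3K27ac at 83.9% in DMSO and 83.4% in FHT-1015, TFAP2A at 84.9% and 84.4%, MITF at 51.9% and 46.5%, and SOX10 at 80.8% and 44.2%. Matching the shared peaks to the −log10 p of the new ones in 10 bins narrowed the gap in FHT-1015: H3K27ac was then at 76.1%, TFAP2A at 69.8%, MITF at 35.5% and SOX10 at 31.4% of shared peaks. New SMARCA4 peaks away from boundaries had H3K27ac at 16.7% and TFAP2A at 13.7% in FHT-1015, and at matched −log10 p 24.9% and 19.3%. Width was not matched, and a wider peak has more bases that can overlap another. Median widths were 287 bp for new boundary, 788 bp for shared boundary and 233 bp for new distal peaks. The part of width in these shares was not tested. No peak of any of the other 4 antibodies in either condition was found at 1327 new boundary peaks (22.99%). This was near the 25.3% of all FHT-1015 SMARCA4 peaks, and lay between 1.95% of shared boundary peaks and 55.3% of new distal ones. All 4 were present at 762 (13.2%) in DMSO and 464 (8.04%) in FHT-1015. The shares were 23.7% and 10.2% of all FHT-1015 SMARCA4 peaks, and 44.5% and 29.1% of shared boundary peaks.

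The DMSO-only boundary peaks are the mirror of the new ones, and H3K27ac and TFAP2A were fewer in FHT-1015 there. Of these 2733 peaks, 53.9% (52.0 to 55.7) had H3K27ac in DMSO and 46.0% (44.1 to 47.8) in FHT-1015. TFAP2A was at 50.1% and 44.2%, MITF at 24.5% and 17.5%, and SOX10 at 44.5% and 14.1%. Their make-up differed from that of the new peaks, with 26.6% at gene ends against 11.7%. At gene starts alone, H3K27ac was at 65.4% of DMSO-only peaks in DMSO and 60.6% in FHT-1015, beside 59.2% and 61.4% of new peaks. At gene ends it was at 38.05% and 23.6% of DMSO-only peaks, beside 32.0% and 24.9% of new ones. The FHT-1015 shares of H3K27ac were thus close at starts and at ends, although they differed over all boundary peaks. They were less close in the remaining classes. For peaks at both a start and an end they were 49.5% of DMSO-only and 69.1% of new peaks. At genes of unknown strand they were 36.2% and 40.9%. TFAP2A at starts was at 51.6% and 48.7% of DMSO-only peaks, beside 51.8% and 55.01% of new ones. Weighted to the −log10 p of the new peaks, DMSO-only peaks had H3K27ac at 56.3% and 47.0% and TFAP2A at 54.8% and 46.1%.

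New boundary peaks were mostly at gene starts and a larger share of their summits lay upstream of the start than of shared summits, though most lay downstream. Strand was known for 15843 of the 20056 genes. By gene boundary, 3852 (66.7%) were at a start, 678 (11.7%) at an end, 233 at both and 1010 at a gene of unknown strand. Shared boundary peaks were at an end in 5.02% and DMSO-only boundary peaks in 26.6%. Of 3735 new summits within 1 kb of a start, 44.6% were upstream of it, against 30.7% of 9295 shared summits and 51.4% of 1347 DMSO-only summits. The median distance from the start was 418 bp for new and 405 bp for shared summits. H3K27ac in FHT-1015 covered 61.4% of new peaks at starts and 24.9% of those at ends. The summit of a new boundary peak inside an FHT-1015 H3K27ac peak lay a median of 364 bp from its edge, against 514 bp for shared peaks, which sat in H3K27ac peaks of a median width of 1840 bp against 1684.5 bp.

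**Figure D3:**
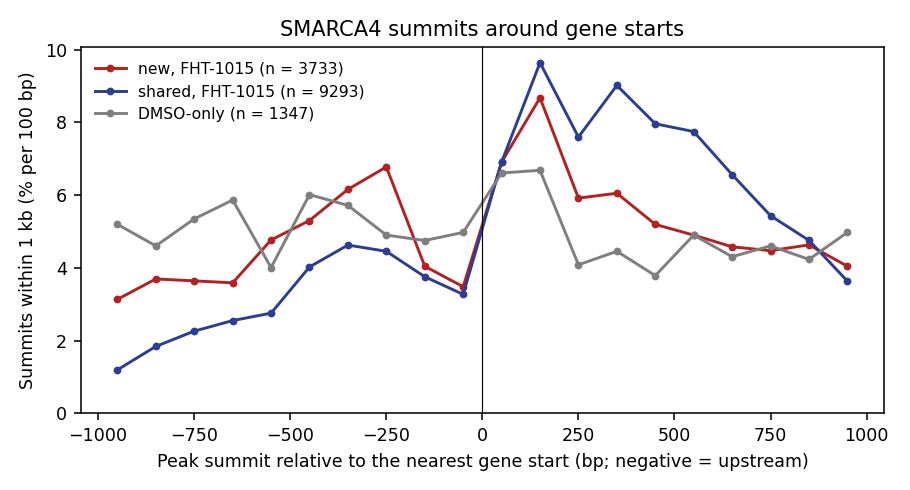
Position of SMARCA4 summits within 1 kb of a gene start, as the percent of such summits in each 100 bp bin (negative, upstream), for new boundary (red), shared boundary (blue) and DMSO-only boundary (grey) peaks. Upstream of the start lie 44.6% of new, 30.7% of shared and 51.4% of DMSO-only summits.

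The share of new peaks differed among chromosomes, and so did the share of DMSO-only peaks. It was highest on chromosomes 19 (473 of 1201 boundary peaks, 39.4%, 36.7 to 42.2) and X (221 of 584, 37.8%, 34.0 to 41.8) and lowest on chromosome 8 (159 of 743, 21.4%, 18.6 to 24.5). The DMSO-only shares were 20.6% on chromosome 19, 19.3% on X and 10.7% on 8, so that both kinds of single-condition peak were more frequent on 19 and X. The background under FHT-1015 boundary peaks, in reads expected at the summit, had a median of 4.29 on chromosome 19, 2.57 on X and 6.86 on 8. The part of background in these shares was not tested.

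**Figure D4:**
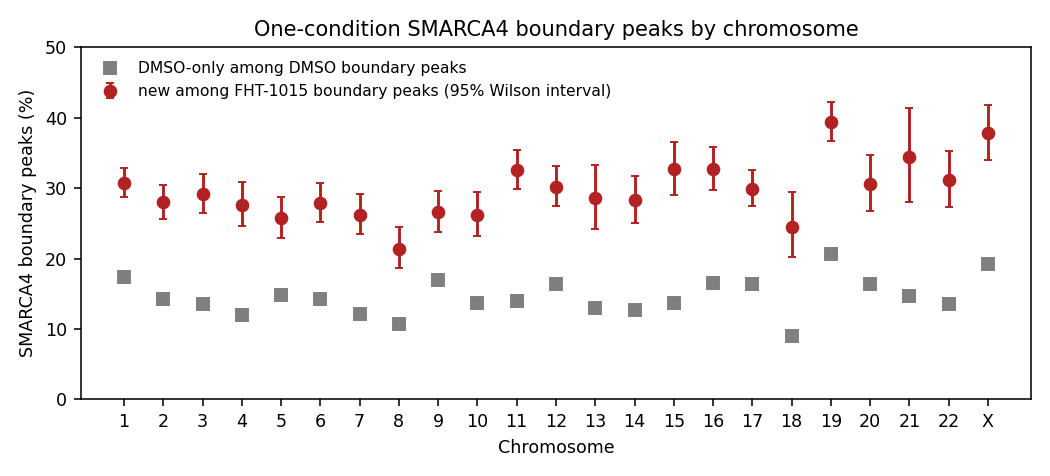
Percent of FHT-1015 SMARCA4 boundary peaks that were new (red circles, 95% Wilson intervals) and percent of DMSO SMARCA4 boundary peaks that were DMSO-only (grey squares), by chromosome. Chromosomes 19 (39.4%) and X (37.8%) are highest and 8 (21.4%) lowest for new peaks.

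A new boundary peak was found at 5393 of 20056 protein-coding genes (26.9%), and 886 of the peaks touched 2 or more genes. Of these genes, 1137 had at least 2 new peaks, 165 at least 3 and 17 at least 4. The number of genes with any SMARCA4 boundary peak was 11665 (58.2%) in DMSO and 12683 (63.2%) in FHT-1015. The boundaries of 1703 genes had a SMARCA4 peak in FHT-1015 and none in DMSO, and those of 685 genes the reverse. Of the 5393 genes with a new boundary peak, 1648 (30.6%) had no SMARCA4 boundary peak in DMSO. FBXO44, an F-box gene, had the most, with 5 peaks of −log10 p 2.63 to 4.78; 4 of them clustered at its start beside FBXO2, with no peak of another antibody.

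The 10 strongest new boundary peaks lay at gene starts, as did 66.7% of all new boundary peaks. Of the 10, 7 had H3K27ac in both conditions, against 49.0% of all new boundary peaks. The values that follow are the authors' −log10 p, first in DMSO and then in FHT-1015 for the other antibodies. Each list has its own depth and background, so a pair of values is set side by side and is not a measured change. Each value belongs to a whole peak that touched the site by at least 1 bp. The peaks of a pair can differ in width and extent. The strongest was at DTX2 (chr7:76461719-76462076), a ubiquitin ligase of Notch signalling, with a SMARCA4 −log10 p of 53.8, a fold of 13.99 and 61 reads at its summit. Its nearest DMSO SMARCA4 peak was 3804 bp away, and H3K27ac was called there at 31.7 and 49.2, with no MITF peak. The peak at PSD and FBXL15 (chr10:102418899-102420571; PSD activates the small GTPase ARF6) had 49.6, 84 summit reads and H3K27ac at 136 and 236. EFEMP2 (chr11:65873007-65873964), encoding the elastic fibre protein fibulin-4, had 48.7; TFAP2A was called there at 72.4 and 57.9, MITF at 30.3 and 9.04, and SOX10 at 13.8 in DMSO only. These 3 sites differed in factors, since DTX2 and PSD had no MITF peak and EFEMP2 had all 3 factors in DMSO.

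GLIS1 (chr1:53738649-53739153), a zinc finger transcription factor, had a −log10 p of 48.5 and the highest fold of all new boundary peaks, 16.98, without H3K27ac in either condition. ENHO (chr9:34523012-34523903), which encodes the peptide adropin, had 43.1, also without H3K27ac, and a TFAP2A peak in DMSO alone (10.6). ZNF614 (chr19:52027853-52028567) had 37.5, with H3K27ac at 63.1 and 161 and no DMSO SMARCA4 peak within 23576 bp. At MAP2K6 (chr17:69414725-69415898), the kinase that activates p38, it was 35.9, with H3K27ac at 16.3 and 45.9. At the shared start of ERG28, a gene of sterol synthesis, and TTLL5, a tubulin-modifying enzyme (chr14:75661223-75662308), it was 32.6, with TFAP2A at 16.97 and 46.1. PRXL2C (chr9:96655382-96655898) had 32.3 and H3K27ac at 32.8 and 104. MTCL1 (chr18:8705535-8705870), a microtubule crosslinking protein, had 32.0 and an H3K27ac peak in FHT-1015 only (7.59). The nearest DMSO SMARCA4 peak was only 302 bp away at GLIS1, 129 bp at ENHO, 196 bp at PRXL2C and 314 bp at MTCL1.

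Among the peaks with H3K27ac in FHT-1015 only, the strongest after MTCL1 were at RELL1, SNX10, ZDHHC18 and HLA-DPA1. Their SMARCA4 −log10 p was 28.4, 20.995, 20.9 and 20.6, and their FHT-1015 H3K27ac −log10 p 16.8, 3.54, 8.51 and 5.24, so the H3K27ac peaks were mostly weak. RELL1, SNX10 and ZDHHC18 had a DMSO SMARCA4 peak within 304, 151 and 406 bp. HLA-DPA1 (chr6:33080129-33081027), the alpha chain of the class II molecule HLA-DP, had its nearest one 43987 bp away.

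Peaks with H3K27ac in both conditions and all 3 factors in FHT-1015 were led by TMEM14B, AAR2, POP4, FTCDNL1 and the shared start of CLSTN3 and RBP5. TMEM14B (chr6:10747626-10748485) had a SMARCA4 −log10 p of 31.6, with H3K27ac at 39.2 and 112, TFAP2A at 124 and 151, MITF at 31.7 and 48.7 and SOX10 at 21.96 and 10.9. AAR2, a factor in splicing complex assembly, had 29.0, with H3K27ac at 50.02 and 106 and SOX10 at 35.2 and 16.3. POP4, a subunit of RNase P, had 26.2, with H3K27ac at 132 and 215 and SOX10 at 24.8 and 7.53. At FTCDNL1 and CLSTN3/RBP5 the SMARCA4 values were 22.4 and 22.3. In these 5 peaks the SOX10 value in FHT-1015 was the lower of the pair at all but CLSTN3/RBP5 (4.86 and 8.25).

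Peaks with none of the other 4 antibodies in either condition were led by TMEM151B, DCLK1, CACNA1D, OPRK1 and SEL1L3. Their SMARCA4 −log10 p was 28.3, 22.5, 19.7, 18.8 and 18.6, with 38, 37, 24, 32 and 23 summit reads. DCLK1 is a microtubule-associated kinase, CACNA1D a subunit of L-type calcium channels and OPRK1 the kappa opioid receptor. TMEM151B (chr6:44270851-44272182) was 1332 bp wide, so a new SMARCA4 peak without H3K27ac was not always narrow.

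The genes were then grouped by function. Of 24 lists, BAF subunit genes had the highest share with a new boundary peak, 18 of 29 (62.1%, 44.0 to 77.3), against 26.9% of all protein-coding genes. Its interval overlaps those of other small lists, such as BCL2 family and Mediator genes. All 29 had a SMARCA4 boundary peak in FHT-1015 and 24 in DMSO. Among all protein-coding genes with any FHT-1015 SMARCA4 boundary peak, 42.5% had a new one. On that base BAF genes stood at 62.1%, below olfactory receptor (76.9%) and keratin genes (78.6%). The 18 included SMARCA4 itself (4.14), SMARCB1 (4.55), SMARCC2 (7.29), SMARCD1, SMARCD2 and SMARCD3 (4.02, 6.62 and 5.05), and the PBAF subunits PBRM1 and ARID2 (5.48 and 5.997). H3K27ac was found at 13 of their 22 peaks in DMSO and 15 in FHT-1015, beside 52.6% and 53.9% of all new boundary peaks. The strongest was at ACTL6B (chr7:100655447-100657586), the neuronal actin-like subunit, with 25.7 and no H3K27ac in either condition. Next was BICRAL (11.3), with H3K27ac at 121 and 250. The new boundary peaks at genes of the complex were thus spread over 18 genes, with that of ACTL6B the strongest.

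Zinc finger genes named ZNF had a new peak at 171 of 509 (33.6%, 29.6 to 37.8). At 91 of the 171 no boundary had a SMARCA4 peak in DMSO, against 30.6% of all genes with a new boundary peak. Over the list, 257 genes had a SMARCA4 boundary peak in DMSO and 333 in FHT-1015. A new one was at 51.4% of these 333, against 42.5% of all genes with an FHT-1015 boundary peak. Of their 207 peaks, 149 had H3K27ac in DMSO and 158 in FHT-1015, beside 52.6% and 53.9% of all new boundary peaks. TFAP2A was at 117 and 126, beside 48.0% and 51.3% of all. MITF was at 46 and 56, beside 20.4% and 19.3%, and SOX10 at 125 and 51, beside 40.6% and 16.5%. The strongest were ZNF614, ZNF160 (27.6; H3K27ac 12.3 and 58.1) and ZNF263 (22.2; H3K27ac 159 and 301).

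Mediator subunit genes, whose products link transcription factors to RNA polymerase II, had a new peak at 13 of 30 (43.3%, 27.4 to 60.8), led by MED16 (11.6), MED28 (11.4) and MED21 (9.88). Proteasome subunit genes had one at 15 of 39 (38.5%), led by PSMD11 (14.3), where H3K27ac was called at 6.63 and 159. Those H3K27ac peaks were 237 bp wide in DMSO and 2148 bp in FHT-1015. Cytosolic ribosomal protein genes (27 of 86, 31.4%), mitochondrial ribosomal protein genes (21 of 77, 27.3%) and respiratory chain genes (29 of 93, 31.2%) were near the 26.9% of all genes. Of the genes with any FHT-1015 SMARCA4 boundary peak, a new one was at 46.4% for Mediator and 46.9% for proteasome genes. For cytosolic ribosomal, mitochondrial ribosomal and respiratory chain genes it was 34.6%, 33.3% and 42.0%, against 42.5% of all such genes. All 35 peaks at cytosolic ribosomal protein genes carried H3K27ac in DMSO and in FHT-1015, beside 52.6% and 53.9% of all new boundary peaks. RPL39L (16.8), RPS13 (10.7), MRPL15 (10.2) and NDUFV3 (13.1) were the strongest of these. Replication-dependent histone genes, at 21 of 69 (30.4%), were led by a peak within 1 kb of boundaries of both H3C1 and H4C1 (7.36). Solute carrier genes (101 of 379, 26.6%) were led by SLC35A3 (23.3).

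Pigment lineage genes had a new boundary peak at 5 of 22 (22.7%, 10.1 to 43.4): MC1R, EDNRB, MLANA, MITF and RAB27A. Their −log10 p ran from 6.83 at MC1R, the melanocortin receptor, to 3.11 at RAB27A, which moves melanosomes. The median of all new boundary peaks was 4.78. At MC1R (chr16:89919470-89920226) H3K27ac was called at 167 and 5.73 and TFAP2A in FHT-1015 only, at 152. The MC1R H3K27ac peaks were 6055 bp wide in DMSO and 286 bp in FHT-1015. At MLANA (3.93), a melanosome protein, H3K27ac was at 229 and 123 and SOX10 at 68.5 in DMSO only. Neural crest transcription factor genes had one at 9 of 21 (42.9%, 24.5 to 63.5), led by ZEB1 (20.6), MSX1 (11.1) and SOX5 (6.52). Their 10 peaks had TFAP2A at 4 in DMSO and 7 in FHT-1015, SOX10 at 4 and 0, and MITF at none. Over all new boundary peaks TFAP2A was at 48.0% and 51.3%, SOX10 at 40.6% and 16.5%, and MITF at 20.4% and 19.3%. Of the pigment lineage genes with any FHT-1015 SMARCA4 boundary peak, 27.8% had a new one. For neural crest genes this share was 47.4%, and for all protein-coding genes 42.5%.

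Genes of signalling and survival had new peaks at shares whose intervals include that of all genes. BCL2 family genes had them at 7 of 16 (43.8%, 23.1 to 66.8), with HRK (7.91), BCL2L2 (7.44) and PMAIP1 (7.34) first. MAP kinase feedback genes, which dampen ERK signalling, had them at 5 of 18. At DUSP6 (chr12:89346278-89346586, −log10 p 9.54), a phosphatase of ERK, the peak was at the gene end, and H3K27ac was called at 176 and 13.9. These H3K27ac peaks were 9009 bp wide in DMSO and 741 bp in FHT-1015. ETV4 followed at 5.90. Immediate early genes had them at 4 of 24, led by NR4A2 (16.7; H3K27ac 106 and 263), cell cycle genes at 6 of 25, led by CCNB1 (10.9), and p53 target genes at 4 of 18, none above 3.52. Heat shock genes had them at 7 of 21, led by HSPA1B (15.2), where H3K27ac was called in FHT-1015 only (5.41); HSPA1B has a near-identical neighbour, HSPA1A, so reads there are uncertain. Cholesterol synthesis genes had them at 7 of 23, led by TM7SF2 (11.3), and antigen presentation genes at 6 of 21, led by HLA-DPA1 and TAP2 (12.3).

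**Figure D5:**
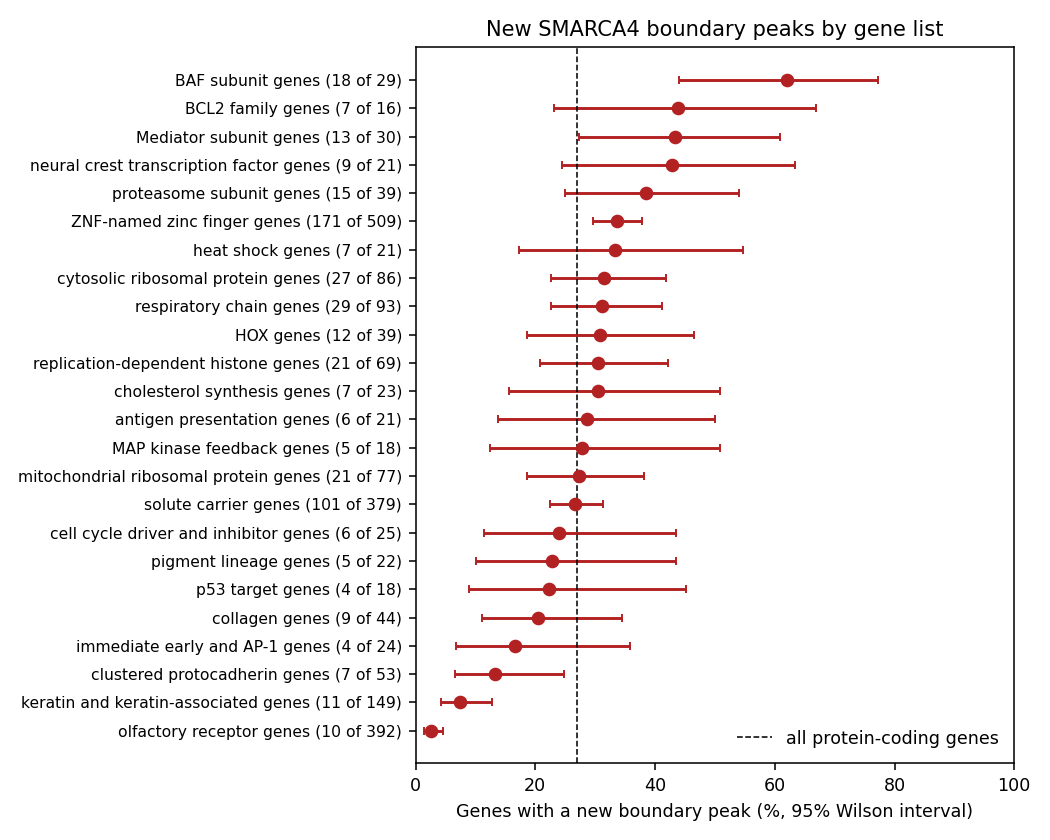
Percent of genes with a new boundary peak in each of 24 gene lists (points, with 95% Wilson intervals; counts beside each name) and in all protein-coding genes (dashed line, 26.9%). BAF subunit genes (62.1%) are highest and olfactory receptor genes (2.55%) lowest. The base is all genes of a list, with or without an FHT-1015 SMARCA4 boundary peak.

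The identity of the cells was checked from H3K27ac at the boundaries of marker genes. Of 8 pigment cell markers, 7 had an H3K27ac peak in DMSO, where the exception was DCT, and 7 had one in FHT-1015. None of the 4 blood, 4 epithelial or 3 endothelial markers had one. Of the 2 liver markers APOA1 and ALB, APOA1 had one in DMSO, and 1 of the 2 had one in FHT-1015. A new SMARCA4 boundary peak was found at 2 pigment, 2 epithelial, 1 endothelial and 1 liver marker and at no blood marker.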

How the data were processed

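Peak lists were deposited by the authors for 10 ChIP-seq libraries, and the submitters' processing notes name BWA, SAMtools, Picard, MACS2 and hg38. Their settings, versions and control are not given in the sources used here. Each narrow list belongs to 1 library. The authors' values used are, per peak, −log10 p, −log10 q and fold enrichment, a ratio over local background. The 2 broad H3K27ac lists were not used.

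Overlap meant at least 1 shared base, and coordinates are counted from 1. Gene boundaries, strands and promoter windows came from RefSeq tables on GRCh38.p14. Reads at each SMARCA4 summit were recovered from fold and −log10 p and were whole, within 0.01, for 89760 of 89761 FHT-1015 peaks and all 101987 DMSO peaks. Analyses used Python 3.11.15, pandas 2.3.3, numpy 2.4.6, scipy 1.17.1 and matplotlib 3.10.9, and the overlap code was checked on simulated data. Matched shares weight the comparison peaks to the members' deciles of −log10 p.

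Genes were named by the −log10 p of their SMARCA4 peak: the 10 strongest, the 5 strongest in each of 3 classes (H3K27ac in FHT-1015 only; H3K27ac in both with all 3 factors; no other peak), the gene with most peaks and up to 3 per gene list, with further members of lists given where a list is described. The peaks and the 24 gene lists were chosen with earlier results of these data known. Alternatives changed the boundary distance, peak thresholds, overlap rule and list lengths.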

Additional observations from a re-analysis of the deposited data

How the results depend on the processing

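With 1 library per antibody and condition, differences between cultures cannot be told apart from effects of FHT-1015, and depth limits the weak peaks. No paired analysis was possible because no group has a replicate. Of 59 alternatives, 13 left the value within its interval (or a count or ratio within 1.5 times) and 46 moved it. The cause was not tested. A reversal could be scored only for the ratio of new to DMSO-only boundary peaks, which stayed above 1. Counts and shares could not be scored as reversed.

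The number of new boundary peaks was 3797 (25.3% of FHT-1015 boundary peaks) within 500 bp and 9496 (35.9%) within 2.5 kb. It was 2429 (12.5%) at least 1 kb from a DMSO SMARCA4 peak and 2634 (18.3%) for −log10 p from 5 up. The share was 20.96% without DMSO broad peaks and 26.1% at q under 0.05. Among alternatives chosen after seeing the data, a −log10 p of at least 10 gave 5.40 new per DMSO-only peak, and the others gave 1.69 to 2.92.

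Shares of new boundary peaks with another peak follow, DMSO then FHT-1015. With the SMARCA4 summit inside the other peak H3K27ac was at 49.4% and 49.99%, MITF at 13.96% and 13.2%, TFAP2A at 37.9% and 41.2%, and SOX10 at 32.6% and 11.1%. With the other peak at a −log10 p of at least 5 they were 50.1% and 52.5%, 16.2% and 15.2%, 43.3% and 45.8%, and 34.3% and 9.56% in that order. For new peaks at a −log10 p of at least 5 they were 62.2% and 64.8%, 26.1% and 25.2%, 60.0% and 62.2%, and 52.0% and 20.8%. For new peaks at least 1 kb from a DMSO SMARCA4 peak they were 44.8% and 46.4%, 18.6% and 17.9%, 44.6% and 48.1%, and 37.7% and 15.5%. With lists of equal number, DMSO shares were 49.8% for H3K27ac, 44.7% for TFAP2A and 19.3% for SOX10.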

Other observations

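New boundary peaks at olfactory receptor, keratin, HOX and collagen genes were mostly without H3K27ac. Over all new boundary peaks H3K27ac was at 52.6% in DMSO and 53.9% in FHT-1015. A new boundary peak was at 26.9% of all protein-coding genes and at 42.5% of those with any FHT-1015 SMARCA4 boundary peak, and 30.6% of the genes with a new one had none in DMSO. Olfactory receptor genes had one at 10 of 392 (2.55%, 1.39 to 4.63), and 8 of the 10 had no DMSO SMARCA4 boundary peak. These 10 were 76.9% of the 13 olfactory receptor genes with any FHT-1015 boundary peak. Keratin and keratin-associated genes had one at 11 of 149 (7.38%), all 11 without a DMSO SMARCA4 boundary peak. These were 78.6% of the 14 with an FHT-1015 one. In DMSO, 9 olfactory receptor and 11 keratin genes had a SMARCA4 boundary peak, so such peaks were lost as well as gained. Of the 9 new olfactory receptor peaks, 1 had H3K27ac in DMSO and 0 in FHT-1015. None of the 10 new keratin peaks carried H3K27ac. The strongest was at boundaries of KRT8 and KRT18 (chr12:52949043-52949561), keratins of simple epithelia, with a −log10 p of 11.8. TFAP2A was called there at 21.7 in DMSO and 5.14 in FHT-1015.

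HOX genes, which set position along the body axis, had one at 12 of 39 (30.8%, 18.6 to 46.4). The strongest were at HOXA5 (5.73), HOXB9 (5.54) and HOXD11 (5.52). The median −log10 p of the HOX peaks was 4.10, against 4.78 for all new boundary peaks. Of their 13 peaks, 1 had H3K27ac in DMSO and 2 in FHT-1015. Collagen genes had one at 9 of 44, led by COL12A1 (11.5, no H3K27ac). Of the 9 collagen peaks, 2 had H3K27ac in DMSO and 1 in FHT-1015. Clustered protocadherin genes had one at 7 of 53, led by PCDHAC2 (6.40). Of these 7 peaks, 3 had H3K27ac in DMSO and 3 in FHT-1015.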
